A study of Mus musculus with 7 samples.

Results

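The genes described here carry dietary fat from the gut lumen into the lymph. They are the apolipoprotein genes Apoa1, Apoa4, Apob, Apoc2 and Apoc3, the lipid transfer gene Mttp, the fatty acid carriers Fabp1 and Fabp2, and the triglyceride enzymes Dgat1 and Mogat2. They were chosen by name, with earlier results of these data known. Each was read from the probe set (the group of probes that measures 1 transcript) that carries its symbol alone. Of the 10 genes, 9 had such a probe set among the 19938 genes measured on 7 arrays. Apoc2 had none, because its 1 probe set also carries the symbol of the neighbouring Gm44805, and no value is given for it. The 9 measured genes had 1 probe set each.

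RNA came from ileum or colon of mice lacking Atg4b (KO) and of wild-type mice (WT), all 3 months old on a C57Bl6/129Sv background. Atg4b encodes a protease that processes the ubiquitin-like proteins of autophagosome formation. The 6 groups were KO ileum and WT ileum from control mice, KO colon and WT colon after dextran sulfate sodium (DSS), and KO colon and WT colon from control mice. DSS, which injures the colonic epithelium, was given by mouth for 7 days and was followed by 3 days of water. KO DSS colon was measured on 2 arrays, called KO DSS 1 and KO DSS 2 here, and each of the other 5 groups on 1 array. Nothing in the labels ties an array to an animal of its own. The p-values therefore speak for the spread of arrays around the fitted model, which may be technical, and the number of arrays limits the precision. As only KO DSS colon had 2 arrays, that spread also takes in KO minus WT differences that are unlike between conditions. All values are log2 of the deposited intensity unless stated otherwise, and a difference of 1 is a 2-fold change.

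Enterocytes of the small intestine take up fatty acids and monoacylglycerol, rebuild them into triglyceride in the endoplasmic reticulum, and load the triglyceride onto apolipoprotein B to form chylomicrons. Fatty acid binding proteins carry the fatty acids through the cytosol, acyltransferases esterify them, and the microsomal transfer protein moves the product onto the nascent particle. The smaller apolipoproteins coat the particle and set how fast its fat is taken up elsewhere. The colon absorbs little long-chain fat, and the liver makes many of the same apolipoproteins.

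Several checks bear on all values. Atg4b read 5.39 to 5.45 in the 4 KO arrays and 7.35 to 7.72 in the 3 WT arrays. Ileal enterocyte markers separated the tissues, with 11 of 13 higher in ileum, among them Fabp6 (12.78 in KO and 12.30 in WT ileum, against 5.22 in KO and 5.17 in WT control colon), while 8 of 12 colonocyte markers were lower in ileum and 1 was higher. Xist was at 12.16 to 12.55 in the 3 DSS arrays and at 5.19 to 5.52 in the 4 others, and the Y-linked Eif2s3y ran the other way, so the DSS arrays show a female and the control arrays a male pattern. This goes against the labelled sex in all 3 WT arrays, where WT ileum and WT control colon are labelled female and WT DSS colon male. DSS and sex therefore cannot be told apart in any DSS difference below. Hepatocyte markers were mixed. Ahsg and Fgb lay between 5.11 and 5.71, under each array's lower quartile (5.71 to 5.87 over the 7 arrays), but Alb reached 6.69 in KO control colon, Ttr lay at 7.10 to 10.54, Tat at 6.22 to 10.49 and Cyp2e1 at 5.46 to 10.06. Of 11 hepatocyte markers measured, 0 were higher and 1 lower in ileum than in colon.

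The start regions of 4 members are shown because the results turn on these genes. Apoa1 and Apoa4 lie in 1 cluster on chromosome 9 but differed between the ileum arrays in unlike degree, Apob varied most within colon among the member apolipoproteins, and Fabp2 stood apart in 1 DSS array. The sequences are RefSeq's, on build GRCm38.p6, from 250 bases before to 50 bases after the annotated start, written 5′ to 3′. Of the 10 members, 7 had an entry, and Apoc3, Dgat1 and Mogat2 had none. Capitals mark matches, on either strand, to 5 short motifs: the TATA box TATAAA, the HNF4 core CAAAG, the nuclear receptor repeat unit AGGTCA, the GATA factor site GATAAG and the partial HNF1 site GTTAAT. In these 4 sequences no match overlapped another.
Apoa1, chr9:46228380-46228679, plus strand: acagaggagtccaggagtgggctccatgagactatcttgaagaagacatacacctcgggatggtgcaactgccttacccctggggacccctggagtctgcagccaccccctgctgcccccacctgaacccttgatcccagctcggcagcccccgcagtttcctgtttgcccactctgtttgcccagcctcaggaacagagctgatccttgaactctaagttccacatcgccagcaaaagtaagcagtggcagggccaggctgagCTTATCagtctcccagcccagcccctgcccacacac
Apoa4, chr9:46240594-46240893, plus strand: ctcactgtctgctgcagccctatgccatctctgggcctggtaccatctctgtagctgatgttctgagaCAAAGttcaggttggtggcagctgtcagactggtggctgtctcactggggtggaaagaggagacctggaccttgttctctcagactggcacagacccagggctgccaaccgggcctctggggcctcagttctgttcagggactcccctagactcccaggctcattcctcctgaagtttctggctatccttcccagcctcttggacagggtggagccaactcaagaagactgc
Apob, chr12:7977427-7977726, plus strand: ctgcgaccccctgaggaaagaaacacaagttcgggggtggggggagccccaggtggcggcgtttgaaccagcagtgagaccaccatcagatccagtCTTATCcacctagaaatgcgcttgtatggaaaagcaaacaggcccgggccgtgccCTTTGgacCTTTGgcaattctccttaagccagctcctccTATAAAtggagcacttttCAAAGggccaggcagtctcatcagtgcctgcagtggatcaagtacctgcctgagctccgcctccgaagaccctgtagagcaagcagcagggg
Fabp2, chr3:122894822-122895121, plus strand: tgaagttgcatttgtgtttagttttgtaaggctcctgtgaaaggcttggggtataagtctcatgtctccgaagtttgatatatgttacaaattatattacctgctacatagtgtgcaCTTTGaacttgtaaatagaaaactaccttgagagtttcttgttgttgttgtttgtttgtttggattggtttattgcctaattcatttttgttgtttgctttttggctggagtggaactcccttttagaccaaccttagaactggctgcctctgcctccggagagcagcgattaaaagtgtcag
The CAAAG core was found in 6 of the 7 members with a sequence, all but Apoa1, and in 53.9% of all 32851 promoter windows of this length. Apob held 3 copies, a TATAAA match and a GATAAG match. The TATA box, the nuclear receptor, the GATA factor and the HNF1 motif were each found in 2 of the 7 members. Of all windows, 13.6% held the TATA box, 16.3% the nuclear receptor motif, 7.44% the GATA factor motif and 7.1% the HNF1 motif. The Apoa1 window held only a GATAAG match, and the Apoa4 and Fabp2 windows only a CAAAG match each. A match describes letters in this window and is not a binding site.

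All 9 measured genes were higher in control ileum than in control colon, by 1.17 to 6.54 log2 units. Apoa1 differed most, followed by Fabp2, Mogat2 and Mttp, and Fabp1 differed least. In limma, a linear model fitted over all 19938 genes, each of the 9 passed at a Benjamini-Hochberg adjusted p under 0.05, whereas 5.94% of all genes were called higher in ileum and 9.16% in either direction. The median difference of the 9 genes was 3.54, against -0.02 over all genes. In 8 of the 9 genes, all but Fabp1, both ileum arrays lay over 2-fold above all 5 colon arrays, which held for 1.48% of all genes, and 0 of the 9 showed the reverse, as 0.562% of all genes did. Within each genotype all 9 were over 2-fold higher in ileum and 0 lower, against 4.72% higher and 2.15% lower of all genes in KO and 2.95% and 2.47% in WT. In tissue RNA, fewer cells of a type and less RNA per cell cannot be told apart.

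**Figure D1:**
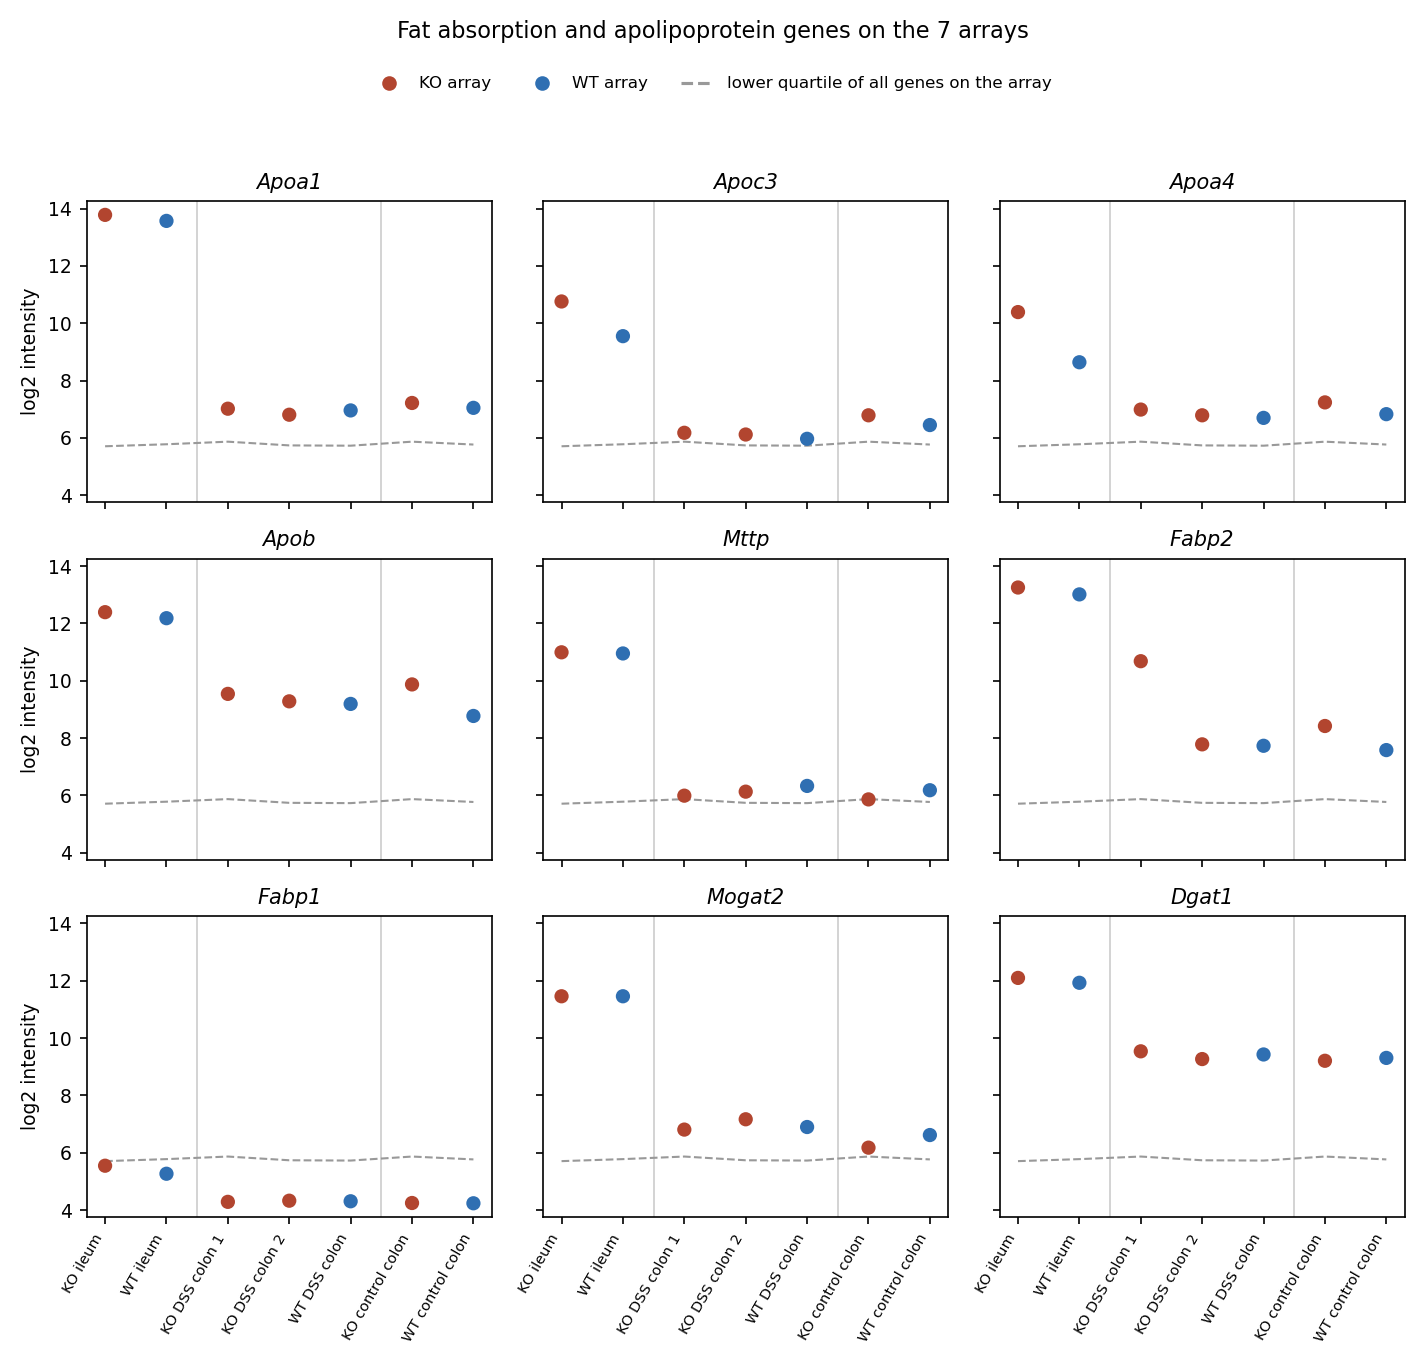
Log2 intensity of the 9 measured genes (vertical axis) on each of the 7 arrays (horizontal axis), 1 point per array, KO in red and WT in blue, with the lower quartile of all genes on each array as a dashed line. The ileum arrays lie above all colon arrays in every panel, Fabp1 lies below the dashed line throughout, and Fabp2 reaches 10.68 in KO DSS 1.

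The Apoa1, Apoc3, Apoa4 and Apoa5 genes follow each other on chromosome 9, and the first 3 were the ones higher in ileum. Apoa1 encodes the main structural protein of high-density lipoprotein and a chylomicron coat protein. It read 13.78 in KO and 13.57 in WT ileum, 7.02 and 6.81 in KO DSS colon, 6.96 in WT DSS colon, 7.22 in KO control colon and 7.05 in WT control colon. The ileum arrays lay far above a narrow band of colon values, and the DSS arrays lay below both control colons. Its ileum minus colon difference was 6.54 ± 0.13 (SE, 2 arrays against 2), a 92.9-fold change with an adjusted p of 3.39e-06 in limma.

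Apoc3, whose product slows the clearance of triglyceride-rich particles, read 10.76 in KO and 9.55 in WT ileum. Its colon values were 6.18 and 6.12 in KO DSS, 5.97 in WT DSS, 6.79 in KO control and 6.45 in WT control. The 2 ileum arrays differed from each other by more than any 2 colon arrays did, yet did not overlap with them. The ileum minus colon difference was 3.54 ± 0.25, or 11.6-fold (limma adjusted p = 0.000506).

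Apoa4, which encodes a chylomicron protein secreted in response to a fat meal, showed the widest gap between the ileum arrays, with 10.39 in KO and 8.64 in WT. Colon arrays read 6.99 and 6.79 in KO DSS, 6.70 in WT DSS, 7.24 in KO control and 6.83 in WT control. Both ileum arrays were above every colon array, by at least 1.4. The fitted difference was 2.48 ± 0.37, or 5.57-fold (limma adjusted p = 0.00917), and it did not pass without the WT control colon (2.71, adjusted p = 0.0664) or the KO control colon (2.25, adjusted p = 0.118). Apoa5, the last gene of the cluster and one made mainly by the liver, read 6.98 in KO and 6.99 in WT ileum, against 7.28 in KO and 7.00 in WT control colon.

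Particle assembly genes followed. Apob encodes the scaffold protein of chylomicrons and very low-density lipoproteins. It read 12.39 in KO and 12.18 in WT ileum, 9.54 and 9.28 in KO DSS colon, 9.19 in WT DSS colon, 9.87 in KO control colon and 8.77 in WT control colon. The control colons marked both ends of the colon range, with all 3 DSS arrays between them. The ileum minus colon difference was 2.97 ± 0.24, or 7.82-fold (limma adjusted p = 0.000955).

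Mttp encodes the large subunit of the microsomal triglyceride transfer protein, without which apolipoprotein B is not loaded with fat. It read 10.99 in KO and 10.95 in WT ileum, 5.99 and 6.13 in KO DSS colon, 6.33 in WT DSS colon, 5.86 in KO control colon and 6.18 in WT control colon. The ileum pair was nearly identical, and the KO control colon lay below that array's lower quartile, where a fold change may be understated. The difference was 4.95 ± 0.13, or 30.9-fold (limma adjusted p = 1.19e-05). P4hb, which encodes protein disulfide isomerase and the partner subunit of the transfer protein, was higher in ileum by only 0.60 ± 0.11 (adjusted p = 0.0227). That call was lost without any one of 5 arrays.

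Among the cytosolic fatty acid carriers, Fabp2, the intestinal form, read 13.25 in KO and 13.01 in WT ileum. Colon arrays read 10.68 in KO DSS 1, 7.78 in KO DSS 2, 7.73 in WT DSS, 8.42 in KO control and 7.58 in WT control. A single DSS array thus lay between the ileum and the rest of the colon, and the other 4 colon arrays spanned 7.58 to 8.42. The ileum minus control colon difference was 5.12 ± 0.86, or 34.9-fold (limma adjusted p = 0.0147). The standard error, which takes in the spread of the KO DSS pair, was the widest of the 9 genes, and the call was lost without any one of the 4 control arrays (4.64 to 5.61, adjusted p = 0.0796 to 0.147).

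Fabp1, the liver form that also occurs in enterocytes, read 5.55 in KO and 5.27 in WT ileum, 4.29 and 4.33 in KO DSS colon, 4.31 in WT DSS colon, 4.25 in KO control colon and 4.24 in WT control colon. The ileum arrays were higher, but all 7 values lay below the lower quartile of their array, so the size of the difference, 1.17 ± 0.12 or 2.24-fold (limma adjusted p = 0.00242), may be understated. With 32 added to each intensity before log2, it was 0.55 (adjusted p = 0.0149).

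The esterifying enzymes were also higher in ileum. Mogat2 encodes the acyltransferase that turns absorbed monoacylglycerol into diacylglycerol. It read 11.46 in both ileum arrays, 6.81 and 7.17 in KO DSS colon, 6.90 in WT DSS colon, 6.18 in KO control colon and 6.62 in WT control colon. The groups did not overlap, and the difference was 5.06 ± 0.18, or 33.4-fold (limma adjusted p = 4.51e-05). Dgat1, which adds the last fatty acid to make triglyceride, read 12.10 in KO and 11.93 in WT ileum, 9.54 and 9.27 in KO DSS colon, 9.43 in WT DSS colon, 9.21 in KO control colon and 9.31 in WT control colon. Its colon values spanned 0.33 log2 units, and the ileum minus colon difference was 2.76 ± 0.14, or 6.77-fold (limma adjusted p = 0.000119).

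**Figure D2:**
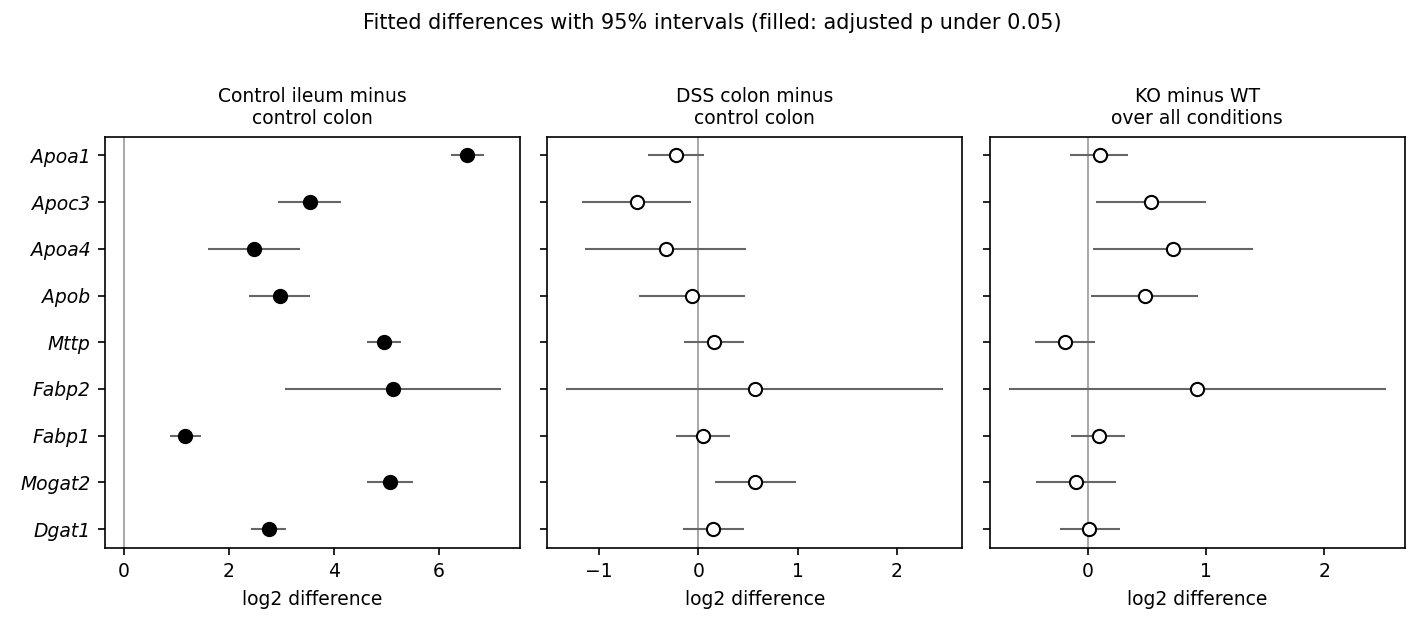
Fitted log2 differences of the 9 genes (horizontal axis) with their 95% confidence intervals, for control ileum minus control colon, DSS colon minus control colon and KO minus WT over all conditions, where filled points passed at an adjusted p under 0.05. All 9 points are filled in the first panel and none in the others, and Fabp2 has the widest interval in each.

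The wider machinery of fat handling moved in part with these genes. Of 46 measured genes on a list of uptake, esterification, particle assembly, cholesterol transport and lipase genes, 22 were higher and 0 lower in ileum, against 5.94% and 3.22% of all genes. The list median was 0.88. The largest differences after the bile acid carrier Fabp6 (7.34 ± 0.16) were those of the cholesterol importer Npc1l1 (5.91 ± 0.11), Pla2g12b (4.33 ± 0.19), the lipase-related Pnliprp2 (4.13 ± 0.44), the sterol efflux subunits Abcg8 (3.4 ± 0.14) and Abcg5 (3.13 ± 0.37) and Tm6sf2 (3.20 ± 0.20). Pla2g12b and Tm6sf2 encode proteins of the secretory pathway needed in mice for fully lipidated particles. Gpat3 (2.78 ± 0.17), Slc27a2 (2.76 ± 0.20) and the fatty acid transporter Slc27a4 (2.37 ± 0.16) completed the 10 largest. The call was lost for Pnliprp2 without the KO control colon and for Abcg5 without the WT control colon, and for the lipase gene Lipe (1.32 ± 0.20) without KO ileum. Over the 7 fits with 1 array left out, P4hb, Lpin3 and Pnpla2 kept the call in 2, Sar1b in 5 and Acsl5 in 6. All other called genes on the list kept it in all 7. Adipocyte markers were also higher in ileum in 3 of 9 genes, with list means of 8.67 in KO and 9.01 in WT ileum, against 6.83 in KO and 8.40 in WT control colon. Their part in Lipe and the other called genes was not tested.

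Among transcription factor genes that act in enterocytes, 6 of 10 were higher in ileum and 1 lower, against 5.94% and 3.22% of all genes. Hnf4g differed by 2.44 ± 0.15, Creb3l3 by 2.41 ± 0.30, the bile acid receptor gene Nr1h4 by 1.97 ± 0.18, Cdx2 by 1.47 ± 0.30, Ppara by 1.45 ± 0.16 and the oxysterol receptor gene Nr1h3 by 0.97 ± 0.17, while Klf4 was lower (-0.58 ± 0.14). Hnf4a, the paralogue of Hnf4g, read 12.39 in KO and 12.42 in WT ileum, against 11.95 in KO and 12.24 in WT control colon, and did not pass. Nearest to the threshold were the calls of Klf4 (limma adjusted p = 0.0472) and Cdx2 (adjusted p = 0.0318). These ileum calls of factor genes were not refitted with single arrays left out.

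In DSS colon none of the 9 genes passed against control colon in limma, whereas 10.6% of all genes did. Without adjustment, Mogat2 and Apoc3 had a p under 0.05, 2 of the 9, against 26.3% of all genes. Mogat2 stood at 0.57 ± 0.17 (SE, 3 DSS against 2 control arrays, adjusted p = 0.0849), and all 3 DSS arrays were above both control colons. Apoc3 stood at -0.62 ± 0.23 (adjusted p = 0.145), with all 3 DSS arrays below both control colons. It passed in a limma fit of the 5 colon arrays alone (-0.57, adjusted p = 0.0413). Leaving out either ileum array gave that same fit, since the other ileum array was then fitted exactly. The same full separation was seen upwards in Fabp1 and Mogat2 and downwards in Apoa1 and Apoc3, and over all genes upwards in 22.1% and downwards in 18%.

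The other 7 genes had differences from -0.33 to 0.57, each with a 95% interval that included 0. That of Apob was -0.06 (-0.60 to 0.47), and it became 0.43 without the KO control colon. Dgat1 stood at 0.15 (-0.15 to 0.46), Mttp at 0.16 (-0.14 to 0.46), Apoa1 at -0.22 (-0.51 to 0.06) and Apoa4 at -0.33 (-1.14 to 0.48). A fall or rise of 2-fold lies outside these intervals for Apob, Dgat1, Mttp and Apoa1, but inside that for Apoa4. The intervals rest on 2 control arrays, which read 9.87 in KO and 8.77 in WT for Apob. Their spread may be technical, and DSS and sex cannot be told apart. They therefore cannot exclude a 2-fold effect of DSS. Mttp lay at 5.86 to 6.33 in colon, close to the lower quartiles of these arrays (5.73 to 5.87), where a fall may be understated. Smooth muscle markers moved with DSS beside these values, with list means of 10.62 and 9.70 in KO DSS and 9.21 in WT DSS, against 11.12 in KO and 11.18 in WT control colon, and 3 of 12 called lower. The 10 general epithelial markers had means of 12.04 and 12.08 in KO DSS and 12.07 in WT DSS, against 11.80 in KO and 11.95 in WT control colon. Colonocyte markers were called lower in 3 of 12 genes (list median -0.45), position genes lower in 3 of 11 (-0.37), macrophage markers higher in 3 of 11 (0.51) and adipocyte markers lower in 1 of 9 (-0.53). The part of these lists in the DSS values of the members and of the wider fat-handling genes was not tested.

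Each DSS array is set apart here against the mean of the control colons. In KO DSS 1 Fabp2 was 2.67 above that mean, whereas it was -0.23 from it in KO DSS 2 and -0.27 in WT DSS. Fabp2 was the only one of the 9 genes over 2-fold above both control colons in KO DSS 1, where 1.69% of all genes were. No member was over 2-fold above or below both control colons in KO DSS 2 or in WT DSS, where 2.21% and 2.91% of all genes were above and 1.4% and 2.2% below. None was over 2-fold below both in KO DSS 1 either, where 0.943% of all genes were. The fitted DSS difference of Fabp2 was 0.57 ± 0.79 with all arrays and -0.25 without KO DSS 1. For Apoc3 the values relative to the same mean were -0.44 in KO DSS 1, -0.50 in KO DSS 2 and -0.65 in WT DSS, and for Mogat2 they were 0.41, 0.76 and 0.49, with the 3 arrays on the same side in each gene.

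Markers of several cell types differed in KO DSS 1 beside Fabp2. Against KO DSS 2, 3 of 13 ileal enterocyte markers were over 2-fold higher and 0 lower, where 0.747% of all genes were higher and 0.497% lower. Fabp2 was the only one of the 9 members over 2-fold different between these arrays. Alpi, the intestinal alkaline phosphatase of the brush border, read 8.83 in KO DSS 1, 6.21 in KO DSS 2 and 6.17 in WT DSS, against 6.48 in KO and 6.11 in WT control colon. The sulfate transporter Slc13a1 read 7.44, 5.53 and 5.62 in the same DSS arrays, against 5.55 in KO and 5.07 in WT control colon. Sucrase-isomaltase (Sis), a defining ileal enterocyte marker, read 4.72 in KO DSS 1 and 13.23 in KO ileum, and Fabp6 read 5.22 there. Of 12 colonocyte markers 3 were over 2-fold lower in KO DSS 1 than in KO DSS 2, with Atp12a at 8.48 against 11.27 and Tgm3 at 10.03 against 11.82, and 1 was over 2-fold higher, Car1 at 13.37 against 12.26. Of 11 genes that mark position along the gut, 2 were over 2-fold lower, with the posterior homeobox gene Hoxb13 at 8.59 in KO DSS 1, against 10.50 in KO DSS 2. None of the 11 was over 2-fold higher, but 7 were higher in KO DSS 1, and the list median was 0.19. Smooth muscle markers were higher in KO DSS 1 in 12 of 12 genes, 6 of them by over 2-fold, with a median difference of 1.02 (list means of 10.62 in KO DSS 1 and 9.70 in KO DSS 2). Adipocyte markers were higher in 9 of 9, 5 of them by over 2-fold, also with a median of 1.02 (list means of 7.55 in KO DSS 1 and 6.46 in KO DSS 2). The part of these differences in the Fabp2 value was not tested.

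**Figure D3:**
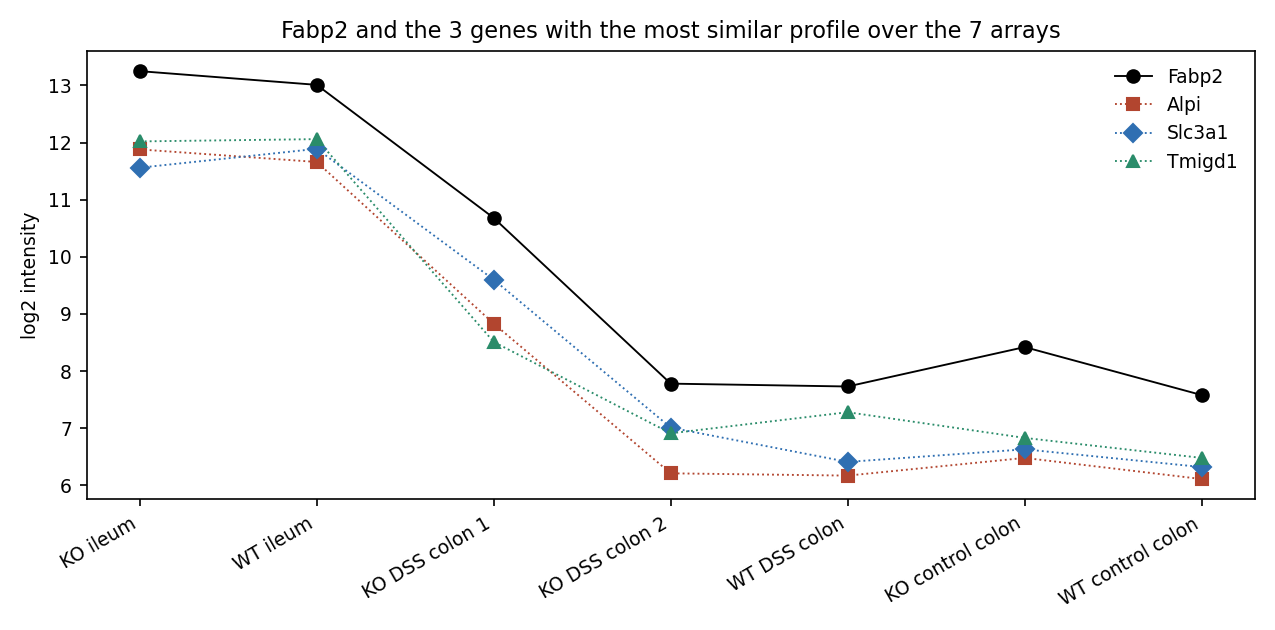
Log2 intensity of Fabp2 and of the 3 genes most like it in profile, Alpi, Slc3a1 and Tmigd1 (vertical axis), on the 7 arrays (horizontal axis), 1 point per array, with lines only to guide the eye. All 4 genes are highest in ileum, and KO DSS 1 lies above the other 4 colon arrays in each. The 3 genes were picked for likeness over these same arrays, so the shared pattern follows from the choice.

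Likeness of profile was measured as the root mean square difference between 2 genes over the 7 arrays after each gene's own mean was removed. It was taken among genes outside the list whose mean lay above the median of all gene means. Nearest to Fabp2 were Alpi (0.21), the dibasic amino acid and cystine transporter subunit Slc3a1 (0.33) and Tmigd1 (0.51). Nearest to Apoa1 was Slc6a19 (0.17), the neutral amino acid transporter of the brush border. Apoa4 was nearest to Mexis (0.29) and Creb3l3 (0.30), Apob to Susd2 (0.30) and Tm6sf2 (0.32), and Apoc3 to Abcg8 (0.31). Dgat1 was nearest to Tmem86b (0.11), Mttp to Osr2 (0.28), Mogat2 to Prap1 (0.28) and Fabp1 to Mgam (0.07), the last a pair in which the Fabp1 differences are small. Among the members themselves Mttp and Mogat2 were the closest pair (0.23), followed by Apob and Dgat1 (0.36). These values order profiles and carry no test, and all are dominated by the ileum arrays.

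In the list of 46 fat-handling genes, 5 rose and 2 fell in DSS colon, against 7.2% and 3.43% of all genes, with a list median of -0.03, so the counts were near those over all genes. Among the 5 were 4 enzymes of triglyceride synthesis, while others of that path did not pass, with Mogat1 at -0.23 (limma adjusted p = 0.298), Gpat4 at 0.40 (adjusted p = 0.0554) and Lpin3 at 0.49 (adjusted p = 0.113). Gpat3, the acyltransferase of the first step from glycerol phosphate, read 8.35 and 7.99 in KO DSS and 7.93 in WT DSS, against 6.60 in KO and 6.83 in WT control colon. Its fitted rise was 1.37 ± 0.16 (limma adjusted p = 0.00620). Dgat2, which performs the same last step as Dgat1 and lies next to Mogat2 on chromosome 7, read 10.50 and 10.36 in KO DSS and 10.36 in WT DSS, against 8.79 in KO and 9.34 in WT control colon. It rose by 1.36 ± 0.17 (adjusted p = 0.00825), and all 3 DSS arrays lay above both control colons. Lpin2, a phosphatidate phosphatase, rose by 1.16 ± 0.16 (adjusted p = 0.0106), Agpat2 by 0.66 ± 0.15 (adjusted p = 0.0399) and P4hb by 0.51 ± 0.10 (adjusted p = 0.0305). Colipase (Clps) fell by 2.34 (SE 0.49, adjusted p = 0.0322) and Abcg8 by 0.57 (SE 0.13, adjusted p = 0.0451). The bile acid receptor gene Nr1h4 rose by 1.16 ± 0.17 (adjusted p = 0.0123), 1 of 10 factor genes to pass.

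These calls rested on few control arrays, and the number of calls over all 19938 genes moved in the same fits. With all arrays 2120 of all genes were called. The number was 526 without the WT DSS array, 800 without KO DSS 2 and 3549 without KO DSS 1. With the 5 colon arrays alone it was 1617, and leaving out either ileum array gave that same fit. It was lowest when either control colon was left out. Without the KO control colon 0 of the 46 passed in limma, without the WT control colon 2, without the WT DSS array 3, without either ileum array or KO DSS 2 it was 4, and without KO DSS 1 it was 16. Dgat2 and Gpat3 kept their calls in 6 of 7 such fits and Lpin2 in 5, with differences of 0.99 to 1.66, 1.13 to 1.56 and 1.06 to 1.28. P4hb, Agpat2 and Abcg8 each passed in 1 of the 7. Clps and Nr1h4 did not pass without either control colon or without the WT DSS array. For comparison, the DSS difference of Dgat1 ran from 0.07 to 0.23 over the same fits and that of Mogat2 from 0.30 to 0.80.

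**Figure D4:**
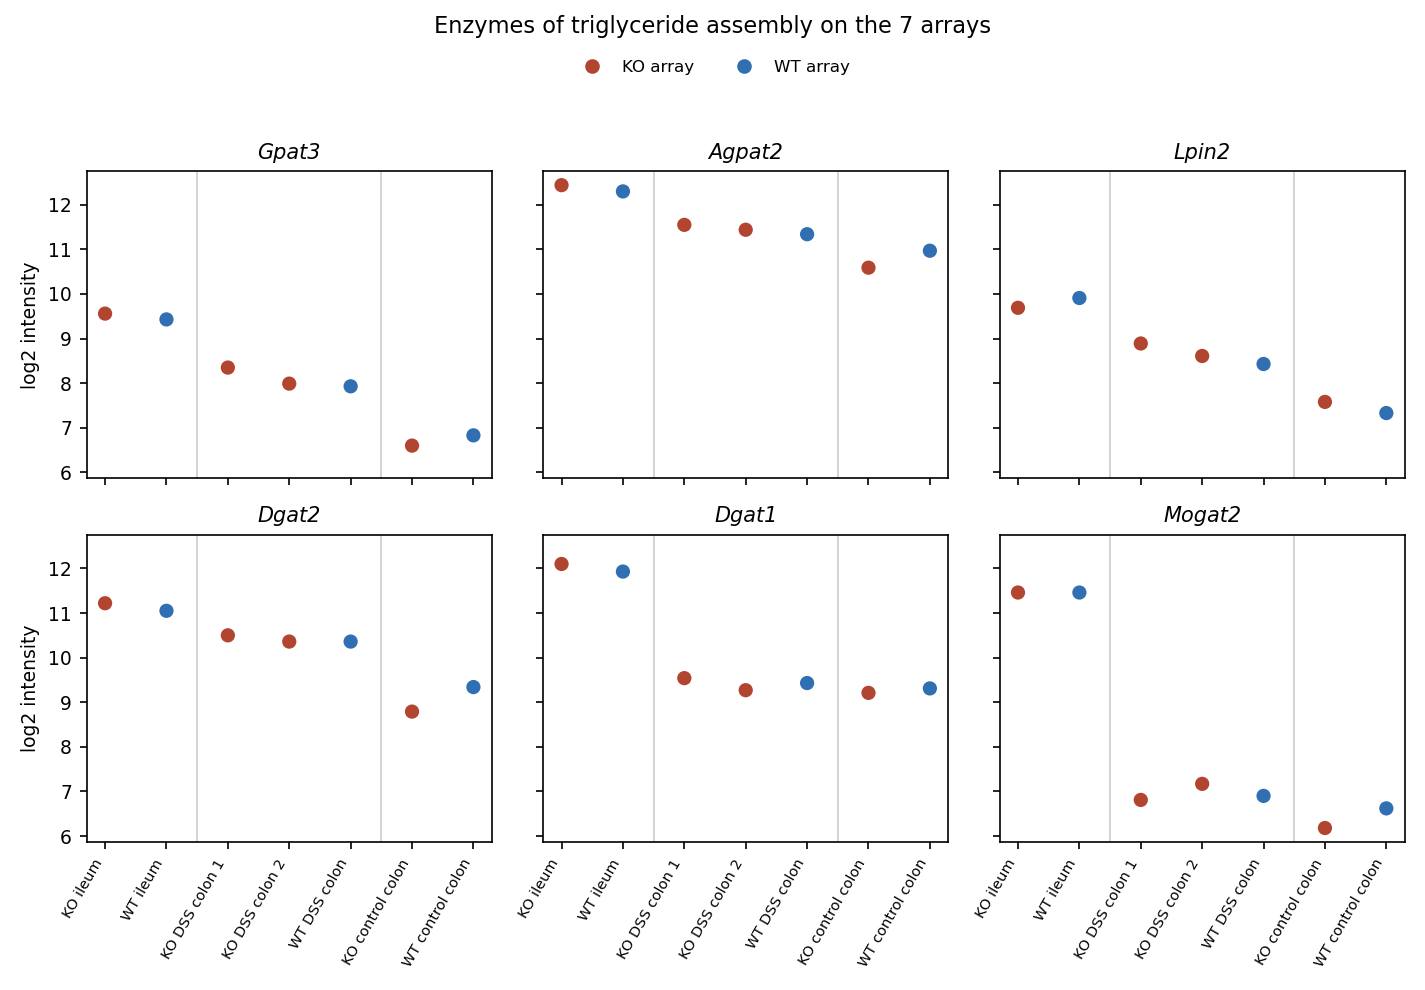
Log2 intensity (vertical axis) of 6 enzymes of triglyceride assembly on the 7 arrays (horizontal axis), 1 point per array, KO in red and WT in blue. Shown are the enzymes called higher in DSS colon and the members Dgat1 and Mogat2. Mogat1, Gpat4 and Lpin3, which did not pass for DSS, are left out. In Gpat3, Agpat2, Lpin2 and Dgat2 the DSS arrays lie between ileum and control colon. Dgat1 and Mogat2 in DSS colon lie near the control colons, with each Mogat2 DSS array above both of them but far below ileum.

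No called difference between KO and WT was seen in these genes. Over all conditions, 0 of the 9 members and 0 of the 46 wider-list genes passed in limma (4 KO against 3 WT arrays), and 0.00502% of all genes did, Atg4b alone. Without adjustment, 3 of the 9 had a p under 0.05, against 3.61% of all genes. These were Apoa4 (0.72 ± 0.28), Apoc3 (0.53 ± 0.19) and Apob (0.48 ± 0.19), each with an adjusted p of 0.989. Macrophage markers moved in the same contrast, with 8 of 11 at an unadjusted p under 0.05, 11 of 11 positive, a median of 0.32 and 0 called after adjustment, and their part in these values was not tested. Fabp2 stood at 0.92 ± 0.66 and the other 5 genes at -0.19 to 0.10. KO lay above WT in ileum, in control colon and in both DSS pairs in 4 of the 9 genes, Apoa4, Apob, Apoc3 and Fabp2. This held for 5.87% of all genes, and sizes were uneven between conditions. Both DSS pairs share the WT DSS array. With KO DSS 2 the differences were only 0.09 for Apoa4, 0.08 for Apob, 0.15 for Apoc3 and 0.05 for Fabp2. KO lay below WT in all 4 pairs in 0 of the 9 and in 9.5% of all genes.

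In ileum, Apoa4 was 1.76 higher in the KO than in the WT array and Apoc3 1.20 higher. The neighbouring genes Apoa1 and Apoa5 differed by 0.21 and -0.01. Apoa4 and Apoc3 were the 2 of 9 genes over 2-fold higher, and 0.622% of all genes were, while 0 of the 9 were over 2-fold lower (0.266%). This is 1 array against 1, with no replicate check. Creb3l3, a factor gene known in mice to control apolipoprotein genes of triglyceride metabolism, differed by 1.39 in the same direction, Pnliprp2 by 1.55 and colipase (Clps) by 1.17. Ppara differed by 0.45 and Hnf4a by -0.03. Beside these, 3 of 13 ileal enterocyte markers were over 2-fold higher in KO ileum (list means of 11.30 in KO and 10.94 in WT), 2 of 11 macrophage markers were over 2-fold higher (means of 8.75 and 8.19 in KO and WT), and 2 of 12 colonocyte markers were over 2-fold lower (means of 8.74 and 9.22 in KO and WT). Their part in the Apoa4 and Apoc3 values was not tested.

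In control colon, Apob was 1.10 higher in the KO array, the only one of the 9 over 2-fold higher, where 0.176% of all genes were. Fabp2 was 0.84 higher, Mogat2 -0.45 and Mttp -0.33. Adipocyte markers were lower in the KO array, 5 of 9 by over 2-fold, with means of 6.83 in KO and 8.40 in WT control colon. The fat-handling genes Lpl (-2.04), Cidec (-1.91) and the fatty acid translocase gene Cd36 (-1.05) were over 2-fold lower there too, and the part of the adipocyte difference in them was not tested. None of the 9 members was over 2-fold lower in KO control colon, where 0.286% of all genes were.

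In DSS colon, none of the 9 genes passed for KO against WT in limma, as none of all genes did, with 0 of 9 and 3.89% of all genes at an unadjusted p under 0.05. Fabp2 stood at 1.5 ± 1.05 (2 KO arrays against 1 WT array, 95% interval -1.08 to 4.08). It was 2.95 higher than WT DSS in KO DSS 1 and 0.05 higher in KO DSS 2. It was the 1 member over 2-fold higher in KO DSS 1, where 1.87% of all genes were, and 0 members were lower (0.707%). In KO DSS 2 no member was over 2-fold higher (0.231%) or lower (0.16%). Without KO DSS 2 the fitted value was 2.95, from 1 KO array against 1 WT array. No spread among DSS arrays enters that fit, so it cannot show whether the difference holds. For the other 8 genes KO DSS 1 differed from WT DSS by -0.34 to 0.34 and KO DSS 2 by -0.20 to 0.27. Apob, Apoa4 and Apoc3 were the ones higher in both KO arrays, by 0.08 to 0.34.

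**Figure D5:**
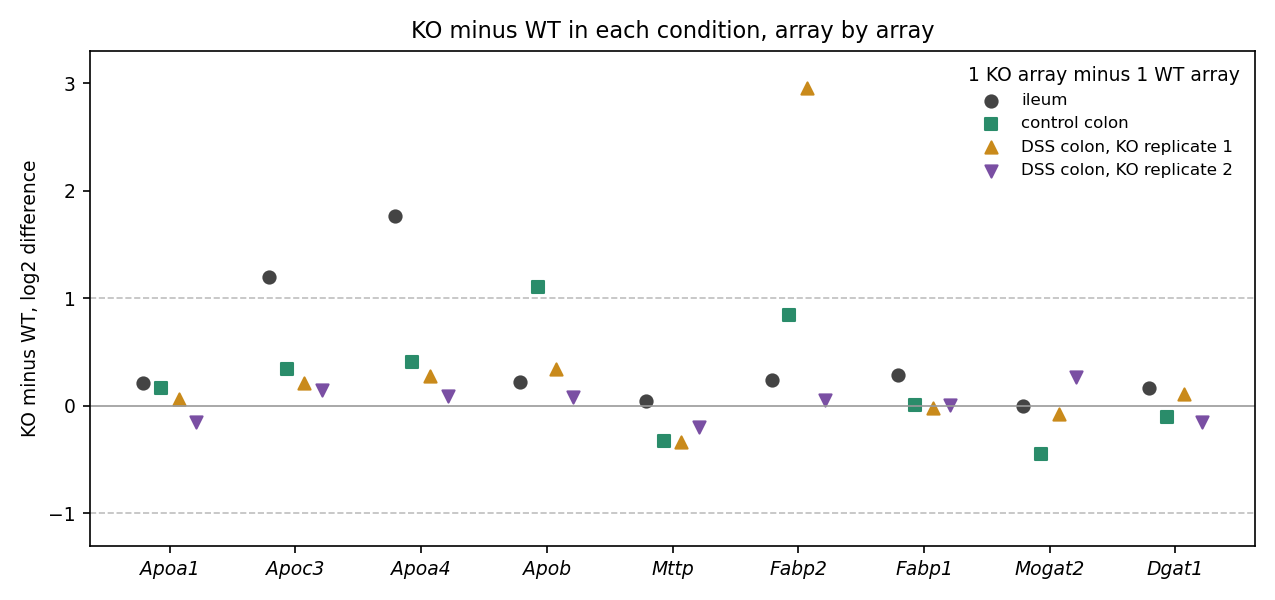
KO minus WT log2 difference (vertical axis) of the 9 genes (horizontal axis) for 4 pairs of single arrays, ileum, control colon and WT DSS colon against each KO DSS array, with dashed lines at 2-fold. The points beyond 2-fold are Apoa4 and Apoc3 in ileum, Apob in control colon and Fabp2 in KO DSS 1.

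The test of whether the KO difference itself changed with DSS gave no call among the 9 genes or among all genes, with 0 of 9 and 3.2% of all genes at an unadjusted p under 0.05. This interaction, the KO minus WT difference in DSS colon less that in the control arrays, was -0.90 ± 0.49 for Apoa4, -0.59 ± 0.34 for Apoc3, -0.45 ± 0.37 for Apob and 0.96 ± 1.36 for Fabp2. Their 95% intervals ran from -2.09 to 0.30, -1.43 to 0.24, -1.34 to 0.45 and -2.37 to 4.29. A change of over 2-fold is within each of these intervals.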

How the data were processed

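Intestinal RNA (RNeasy kit) was hybridised to Affymetrix arrays after sense target labelling, per the labels. The authors deposited 1 linear intensity per probe set and array; the sources used here do not give how they summarised and normalized it. Array medians of 121.4 to 126.45 were taken to mean that arrays were already scaled to each other, so that a global shift could not be seen. Log2 of each intensity was computed here. Of 35512 probe sets, 21789 carry 1 gene symbol in the platform annotation, 1621 several and 12102 none. Probe sets with 1 symbol gave 19938 genes, and of several for a gene (999 genes) the one with the highest mean was used.

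Models were fitted over all genes with limma 3.58.1 in R 4.3.3 (lmFit, eBayes, two-sided), with Benjamini-Hochberg adjustment and a threshold of 0.05. The first held condition and genotype (3 residual degrees of freedom), the second added the genotype difference in DSS colon (2). Differences are printed ± the fit's standard error, with 95% intervals. The scripts were tested on simulated data. Single arrays were compared without a test, at 2-fold. The genes named are the members, wider-list genes past the threshold (up to 10 each way), the factor genes, the 3 genes nearest each member in profile, and marker genes as checks. Some genes outside this rule were named after their values were seen. Members and lists were chosen with earlier results of these data known. Alternatives were quantile normalization, centring, log2 after adding 32, a filter on dim genes, mean probe sets, a variance trend with robust prior, labelled sex, the 5 colon arrays alone, and 1 array omitted at a time. The array's build is not given, so coordinates are those of the RefSeq sequences alone. Figures were drawn with matplotlib 3.10.9.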

Additional observations from a re-analysis of the deposited data

Results flagged for a closer look

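Mttp and Dgat1 had KO minus WT differences of opposite sign in ileum and control colon, each from 1 array against 1. Mttp was 0.04 higher in KO ileum and stood at -0.33 in control colon, a gap of 0.37. Dgat1 was 0.17 higher in KO ileum and stood at -0.10 in control colon, a gap of 0.27. Whether these differences differ between the tissues was not tested, and no group held enough arrays to look for a single outlying array.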

How the results depend on the processing

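The 9 ileum calls numbered 8 with the variance trend and robust prior and 8 of 8 tested above the dim filter, and 7 to 9 with single arrays left out, always with the same sign. No member passed for KO over all conditions under any alternative. For DSS the count was 1 with colon arrays alone and 0 to 1 with single arrays left out. The 1 came from leaving out either ileum array, which gives the same fit as colon arrays alone. For KO in DSS colon and for the interaction the count was 0, save for Fabp2 without KO DSS 2, where no spread among DSS arrays enters the fit. The wider list's DSS count, an alternative chosen after seeing the data, was 0 to 16.

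Values that changed sign were small or rested on 1 array. Leaving out single arrays gave DSS differences of -0.46 to 0.43 for Apob, -0.01 to 0.10 for Fabp1 and -0.25 to 1.20 for Fabp2. KO over all conditions ran from -0.05 to 0.06 for Dgat1 and from -0.22 to 0.05 for Mogat2. KO in DSS colon ran from -0.02 to 0.01 for Fabp1, -0.15 to 0.06 for Apoa1, -0.15 to 0.11 for Dgat1 and -0.08 to 0.27 for Mogat2. The interaction ran from -0.32 to 0.05 for Mttp, -0.19 to 0.08 for Dgat1 and -0.49 to 2.41 for Fabp2. With colon arrays alone the KO difference of Dgat1 was -0.05, and the interactions of Mttp and Dgat1 were 0.05 and 0.08. Under quantile normalization KO in DSS colon was 0.04 for Fabp1 and 0.02 for Dgat1. The cause was not tested. The number of all genes called for DSS fell to 183 without the KO control colon and rose to 3549 without KO DSS 1. No paired analysis was possible because the labels do not say which arrays, if any, came from the same animal. Labelled sex, which the sex markers contradict in the 3 WT arrays, does not adjust for measured sex, and it could not be fitted with the interaction.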

Other observations

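Among cholesterol transport genes, Npc1l1, Abcg5 and Abcg8 were higher in ileum, whereas Abca1 (0.02 ± 0.19, limma adjusted p = 0.971) and Scarb1 (-0.43 ± 0.18, adjusted p = 0.234) did not pass. Npc1l1, the importer of dietary cholesterol, read 12.64 in KO and 12.59 in WT ileum, and 6.64 to 6.87 in the 5 colon arrays. Abcg5 and Abcg8 form the pump that returns sterols to the lumen. Abcg5 read 6.72 in KO DSS 1, 7.90 in KO DSS 2 and 7.63 in WT DSS, against 8.53 in KO and 8.27 in WT control colon. Abcg8 read 6.25, 6.56 and 6.40 in the same DSS arrays, against 6.93 in KO and 7.01 in WT control colon. All 3 DSS arrays lay below both control colons in each, as they did in 18% of all genes. Abcg5 did not pass for DSS (-0.98 ± 0.34, limma adjusted p = 0.124). The DSS call of Abcg8 was kept in only 1 of 7 fits with 1 array left out. Apoe, made by many cell types including macrophages, read 11.05 in KO and 10.54 in WT ileum, against 10.29 in KO and 10.49 in WT control colon, and did not pass.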
